A study of Mus musculus with 6 samples.

Results

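The regions described here are the very broad H3K27me3 domains of C3H10T1/2 cells, a mouse embryo-derived line of multipotent mesenchymal cells. They are the entries of the deposited H3K27me3 peak list that span at least 100 kb, and they number 838 of 3999. The members were chosen by their length alone, computed from the listed start and end, so the lengths below are a description and support nothing. The study profiled H3K36me3 and H3K27me3 by chromatin immunoprecipitation and sequencing after micrococcal nuclease digestion. All cells carried a stably expressed histone H3.3 with a FLAG-HA tag, in one group the wild-type protein and in the other the K36M mutant, in which lysine 36 is replaced by methionine, and both were used at passages 10 to 15. Each genotype gave 1 input library (5% of the chromatin), 1 H3K36me3 library and 1 H3K27me3 library, 6 in all, so there are no replicates. The available data are 1 list of peak positions per mark, on the mouse build mm9, with no signal height and with no statement of the genotype behind either list. No comparison of K36M with wild-type cells was therefore made, no difference was tested, and the depth behind a peak is unknown. Every percentage interval below is an exact (Clopper-Pearson) 95% binomial interval that treats peaks as independent and covers only their number, not the variation between cultures.

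H3K27me3 is deposited by Polycomb repressive complex 2 and is known for marking developmental genes that are kept silent. It can occupy a narrow site at a promoter or spread over long stretches of chromatin. H3K36me3 is laid down by SETD2 as RNA polymerase II elongates and marks the bodies of transcribed genes, and Polycomb repressive complex 2 is known to work poorly on nucleosomes that carry it. No gene was assigned to a domain and no sequence is shown, since the annotation used would have to be on mm9.

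The 838 domains made up 21.0% of the H3K27me3 peaks and held 158 Mb, which is 66.4% of all bases under the mark and 6.20% of the 2550 Mb between the outermost peaks of the 20 chromosomes. Their median length was 162 kb (interquartile range 127 to 221 kb). There were 136 domains of 100 to 120 kb, 226 of 120 to 150 kb, 210 of 150 to 200 kb, 179 of 200 to 300 kb and 87 of 300 kb and longer. The longest 83 domains carried 20.6% of the domain bases, and only 9 domains reached 500 kb.

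The limit of 100 kb fell in a continuous part of the length distribution. The list held 84 peaks of 90 to 100 kb and 77 of 100 to 110 kb. The first members inside the limit were 100 kb at chr11:3606801-3706800, 100.2 kb at chr11:87684201-87784400 and 100.4 kb at chr2:72328401-72428800. The first peaks outside it were 99.8 kb at chr5:22683601-22783400, 99.8 kb at chr9:79646401-79746200 and 99.6 kb at chr12:74662001-74761600.

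The longest domain of each chromosome shows the range of sizes and of surroundings. Chromosome 8 carried a domain of 763 kb (chr8:11843601-12607000), with H3K36me3 14.6 kb before its start and 7.2 kb after its end. On chromosome 1 the longest measured 654 kb (chr1:170770201-171424600), and H3K36me3 lay 409 kb before it and 3.6 kb after it. The domain of 640.0 kb at chr14:33400801-34040800 had H3K36me3 at 8.6 and 24.8 kb. In each of these 3 domains H3K36me3 lay within 10 kb of 1 end only.

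Chromosome 6 held a domain of 603 kb (chr6:113692001-114295000) with H3K36me3 2.2 kb before its start, whereas the next H3K36me3 peak after its end was 1203 kb away. Chromosome X held one of 544 kb (chrX:49720401-50264200), for which the distances were 1351 and 19.6 kb. The longest on chromosome 7, of 515 kb (chr7:121470801-121985800), had H3K36me3 at 52.0 and 1240 kb. In these 3 domains the distances on the 2 sides differed by more than 10-fold. On chromosome 10 the longest domain, of 539.6 kb (chr10:21861801-22401400), was of another kind, since it held 3 H3K36me3 peaks inside it.

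The longest domains of the other chromosomes were shorter. They measured 484 kb at chr9:42281401-42765600, 468 kb at chr11:118388001-118856200, 443 kb at chr17:34275601-34718600 and 440.0 kb at chr5:35449401-35889400. Chromosomes 2 (chr2:27904401-28342000), 15 (chr15:80097001-80533200), 3 (chr3:58509801-58923600) and 13 (chr13:56239801-56640400) followed with 438, 436, 414 and 401 kb. Chromosome 16 reached 393 kb (chr16:37104201-37497400), chromosome 12 reached 386 kb (chr12:87641001-88027000), chromosome 4 reached 366 kb (chr4:44401401-44767000) and chromosome 19 reached 347 kb (chr19:43217801-43565000). Chromosome 18 stood at the lower end, as its longest domain was 230.2 kb (chr18:67133801-67364000) and its nearest H3K36me3 peak was 187 kb away.

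The spacing of the domains was uneven. Measured from the end of a domain to the start of the next on the same chromosome, the 818 gaps had a median of 1.08 Mb (95% order-statistic interval 0.93 to 1.23 Mb) and a mean of 2.68 Mb. The middle range ran from 353 kb to 3.05 Mb. Gaps under 100 kb numbered 82 (10.0%, interval 8.05 to 12.3%), gaps under 500 kb numbered 261 (31.9%, 28.7 to 35.2%) and gaps under 1 Mb numbered 397 (48.5%, 45.1 to 52.0%). At the other end, 45 of the gaps were at least 10 Mb long.

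**Figure D1:**
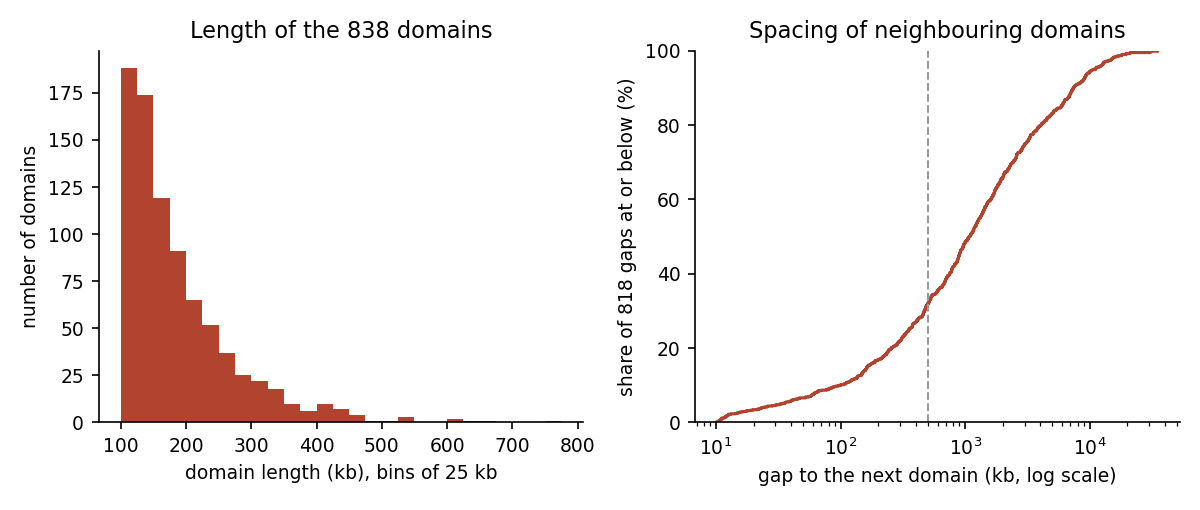
Left, number of domains by length in bins of 25 kb. Right, share of the 818 gaps between neighbouring domains at or below each size (log axis, dashed line at 500 kb). The bins next to the limit of 100 kb hold the most domains, and 31.9% of gaps lie below the dashed line.

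The closest pairs were about 10 kb apart. On chromosome 6 a gap of 10.2 kb (chr6:90941801-90952000) separated domains of 181 and 137 kb. On chromosome 1 a gap of 10.4 kb (chr1:34697801-34708200) separated domains of 126 and 137 kb. The third pair, on chromosome X, was also 10.4 kb apart (chrX:54301801-54312200), with domains of 248 and 271 kb on its sides, and an H3K36me3 peak covered 44.2% of that gap. The smallest gap anywhere in the H3K27me3 list is 10.2 kb, and from positions alone separate domains cannot be told apart from pieces of 1 marked stretch. Joining H3K27me3 peaks closer than 20 kb before the length limit was applied gave 878 domains in place of 838, and the longest then measured 790.2 kb (chr9:44777601-45567800).

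Long stretches had no very broad domain at all. The longest was 35.1 Mb of chromosome X (chrX:11030201-46119200), followed by 31.2 Mb of chromosome 6 (chr6:52298201-83524200) and 30.6 Mb of chromosome 14 (chr14:87780601-118378400). They were not free of H3K27me3, since they held 10, 27 and 16 shorter peaks. H3K36me3 was sparse in them, covering 3.17%, 2.89% and 1.71% of their bases, against 6.13% over all chromosomes. The stretches held 51, 45 and 23 H3K36me3 peaks, and their whole chromosomes had 15.1, 23.8 and 24.3 per 10 Mb. Chromosome X had the lowest density of H3K36me3 peaks of any chromosome. The low coverage of its stretch is therefore not shown to be particular to that stretch.

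Domains linked by gaps under 500 kb formed chains. Of the 838 domains, 406 (48.4%) had no neighbour that close, 226 formed 113 pairs, and 206 belonged to 58 chains of 3 to 6 domains. In 38 of these chains the span reached 1 Mb, and these are called blocks here. The 38 blocks held 145 domains (17.3%, 14.8 to 20.04%) on 54.0 Mb, or 2.12% of the span, with a median block length of 1.34 Mb. Domains covered 29.9 to 81.8% of a block, with a median of 53.8%. The number of blocks rests on the chosen link, as links under 250 kb gave 6 blocks and links under 1 Mb gave 80.

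The block of the longest span covered 2.04 Mb at the end of chromosome 2 (chr2:179516601-181558400). Its 5 domains of 119 to 298 kb alternated with H3K36me3, which had 20 peaks there and covered 18.3% of the block, the highest share of the 38. The second block, 1.98 Mb of chromosome 8 (chr8:94198201-96183000), also held 5 domains, but only 4 H3K36me3 peaks (3.11% of its bases). The third, of 1.97 Mb at chr2:73472001-75439200, held 5 domains of 165 to 321 kb, 3 H3K36me3 peaks and no shorter H3K27me3 peak. Blocks of similar length and number of domains thus differed in how much H3K36me3 lay between the domains.

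The next 2 blocks by span were on chromosome 2 as well. One spanned 1.96 Mb (chr2:152195001-154151200) with 5 domains and 13 H3K36me3 peaks covering 14.7% of it, and the other 1.83 Mb (chr2:92309601-94135800) with 4 domains and 5 H3K36me3 peaks covering 3.63%. The most domains in a block, 6, were on chromosome 13 (chr13:30081401-31845000, 1.76 Mb). The densest was a block of 1.76 Mb at chr14:33126801-34883800, of which 3 domains covered 81.8%. A single block, at chr15:38985201-40064400, held no H3K36me3 peak. Over the 38 blocks the median H3K36me3 coverage was 5.83%, close to the 6.13% over all chromosomes, although domains took up a median of 53.8% of a block. These last 3 blocks, and the block of chromosome 1 below, were named after their values had been seen.

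**Figure D2:**
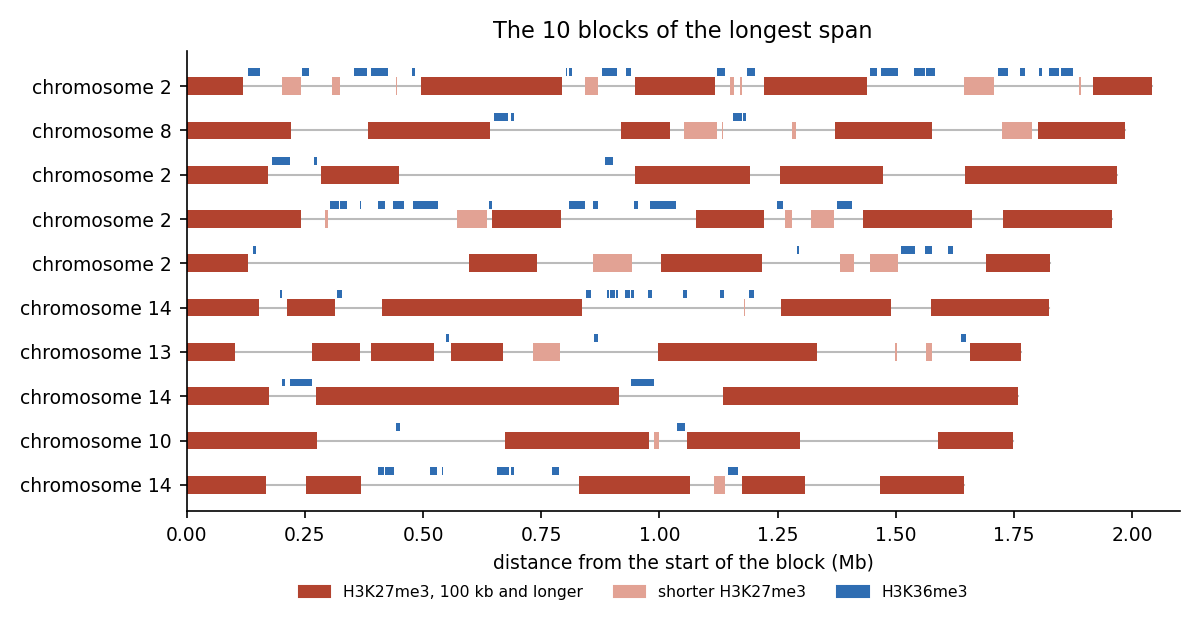
Maps of the 10 blocks of the longest span, drawn to scale from the start of each block (Mb). Dark red bars are H3K27me3 domains of 100 kb and longer, pale red bars are shorter H3K27me3 peaks, and blue bars above the line are H3K36me3 peaks. The top block (chromosome 2) has 20 H3K36me3 peaks between its 5 domains, and the third (chromosome 2) has 3.

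What lay between neighbouring domains changed with the size of the gap. Of the 28 gaps under 20 kb, 27 held no listed peak of either mark, and the exception is the pair on chromosome X described above. No shorter H3K27me3 peak could lie in these 28 gaps, because peaks in that list are at least 10.2 kb apart. For gaps of this size only the H3K36me3 content could vary. Of the 54 gaps of 20 to 100 kb, 24 held H3K36me3, in 21 cases without a shorter H3K27me3 peak, while 27 were empty. Gaps of 100 to 250 kb held H3K36me3 in 49 of 79 cases (62.0%, 50.4 to 72.7%), and gaps of 250 to 500 kb in 81 of 100 (81.0%, 71.9 to 88.2%). A longer gap has more room for a peak, so the rise in these shares follows in part from gap length.

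Counted in bases, H3K36me3 took 1.25% of the gaps under 20 kb, 22.7% of those of 20 to 50 kb, 11.1% of those of 50 to 100 kb, 15.9% of those of 100 to 250 kb and 14.7% of those of 250 to 500 kb. The share was 9.61% in gaps of 1 to 5 Mb and 4.33% in longer ones. Within chains, that is over all 261 gaps under 500 kb, 155 held H3K36me3 (59.4%, 53.2 to 65.4%), 84 held no listed peak and 22 held shorter H3K27me3 peaks only. H3K36me3 covered 14.9% of their bases and shorter H3K27me3 peaks 8.97%. These contents were not computed for gaps between other H3K27me3 peaks, so they are not shown to be particular to domains. Outward from an edge, H3K36me3 came before the next H3K27me3 peak on 58.9% of domain sides. Over the sides of all H3K27me3 peaks this share was 60.4%.

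**Figure D3:**
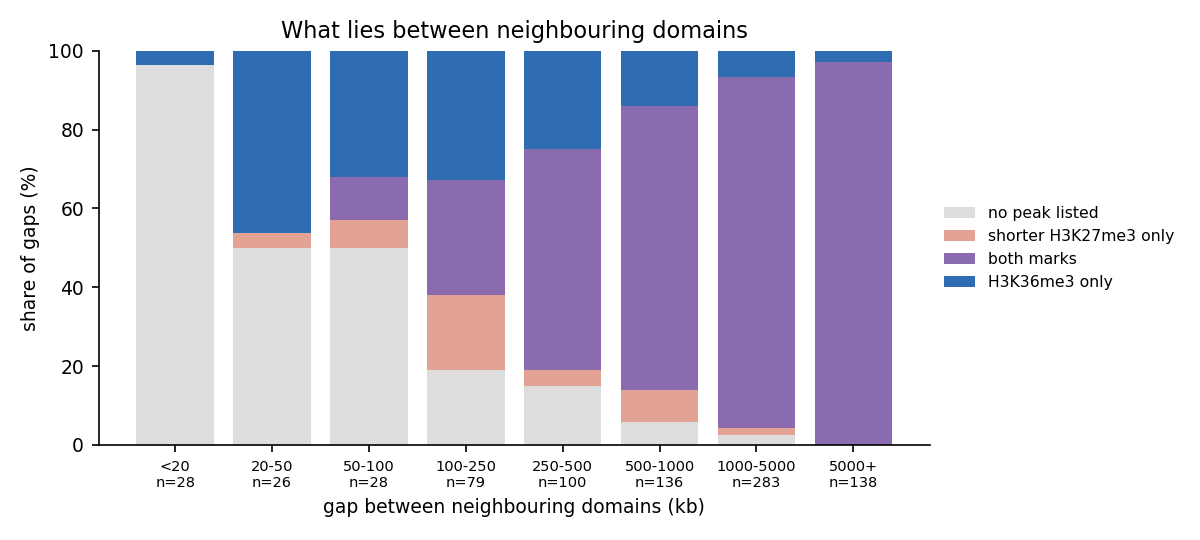
Share of gaps between neighbouring domains (vertical axis, %) that hold no listed peak, shorter H3K27me3 peaks only, both marks, or H3K36me3 only, by gap size in kb, with the number of gaps under each bar. Among gaps under 20 kb, which are too short to hold another listed H3K27me3 peak, 27 of 28 are empty, and from 5 Mb upward none is.

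In 6 places a single H3K36me3 peak stood between 2 domains with both edges within 10 kb. On chromosome 3 a peak of 16.0 kb (chr3:82860601-82876600) lay 4.8 and 7.4 kb from domains of 218 and 206 kb. On chromosome 10 a peak of 17.4 kb (chr10:12894801-12912200) lay 5.2 and 2.0 kb from domains of 152 and 308 kb. On chromosome 11 a peak of 22.2 kb (chr11:103535801-103558000) lay 6.6 and 3.6 kb from domains of 254 and 115 kb. In these cases the H3K36me3 peak was much shorter than the domains on its sides.

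The other 3 such peaks measured 21.2 kb at chr6:91829801-91851000 and 12.6 and 23.8 kb on chromosome 19 (chr19:40910401-40923000 and chr19:43573801-43597600). They separated domains of 108 and 123 kb, 107 and 281 kb, and 347 and 122 kb. The 6 peaks lay on 5 chromosomes and were singled out after the values had been seen.

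H3K36me3 crossed few domain edges, and per kilobase its first peak most often began 2 to 10 kb away. Each domain has 2 sides, and 1671 of the 1676 sides had an H3K36me3 peak somewhere beyond them on the chromosome. The first such peak began under 2 kb from the edge on 17 sides, 2 to under 5 kb away on 110, 5 to under 10 kb away on 157, 10 to under 20 kb away on 156 and 20 to under 50 kb away on 187. Per kilobase of distance these are 8.5 sides under 2 kb, 36.7 from 2 to 5 kb, 31.4 from 5 to 10 kb and 15.6 from 10 to 20 kb. The 17 closest sides include 5 edges that an H3K36me3 peak crossed and 1 edge that a peak met without sharing a base. H3K36me3 lay within 2 kb of 1.25% of domain sides and within 5 kb of 7.94%, beside 1.01% and 6.49% of the sides of all H3K27me3 peaks. These differences were not tested.

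H3K36me3 lay within 10 kb of 290 of the 1676 sides (17.3%, 15.5 to 19.2%), where the share over the sides of all H3K27me3 peaks was 14.5%. By domain, 268 had it on at least 1 side (32.0%, 28.8 to 35.3%), against 26.3% of all H3K27me3 peaks and 28.5% (26.6 to 30.4%) of peaks of 5 to 100 kb. Of these, 246 (29.4%, 26.3 to 32.6%) had it on 1 side only and 22 (2.63%, 1.65 to 3.95%) on both, and the latter share over all peaks was 2.83%. No side was near H3K36me3 in 570 domains (68.0%, 64.7 to 71.2%). Peaks of 5 to 100 kb gave 15.7% of sides (14.6 to 16.8%) and 2.88% on both sides (2.23 to 3.66%). The intervals of the domains and of peaks of 5 to 100 kb overlap for each of the 3 shares.

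The 2 sides of a domain were not alike. Among the 833 domains with H3K36me3 beyond both edges, the Spearman correlation of the 2 distances was -0.01, a description over domains that can share the same H3K36me3 peaks. The distance on the farther side was more than 10 times that on the nearer side in 353 domains (42.4%), a share not computed for other H3K27me3 peaks. The median was 24.6 kb on the nearer side and 362 kb on the farther one, a difference in order that choosing the nearer side creates by itself. These medians were 33.6 and 299 kb for H3K27me3 peaks of 5 to 100 kb, and 73.8 and 371 kb for those under 5 kb. Unlike sides are thus not particular to the domains. The share with H3K36me3 within 10 kb on both sides, 2.63%, stood beside 2.98% for the product of the shares on the single sides. Of the 246 domains with 1 near side, that side was toward the chromosome start in 133 and toward the end in 113, and on the other side the first H3K36me3 peak was a median of 190 kb away (interquartile range 59.5 to 505 kb).

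**Figure D4:**
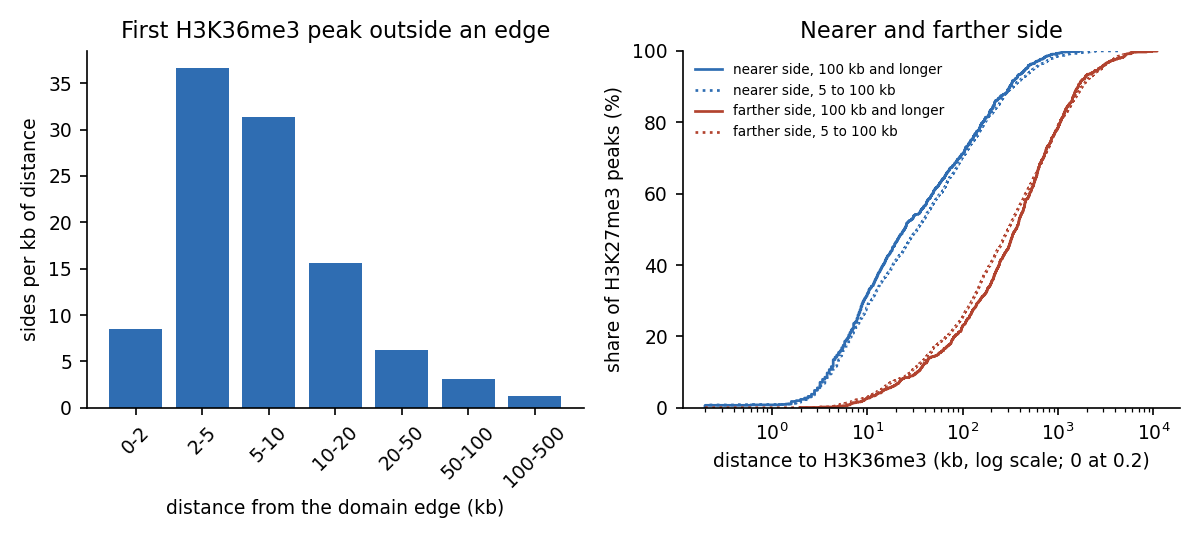
Left, number of domain sides per kb of distance at which the first H3K36me3 peak begins outside the edge, by distance in kb, with crossed edges counted in the first bar. Right, cumulative share of H3K27me3 peaks by distance to H3K36me3 on the nearer (blue) and farther side (red) on a log axis, for domains (solid) and peaks of 5 to 100 kb (dotted). The first bar stands at 8.5 sides per kb and the second at 36.7, and the solid and dotted curves run close together.

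The longest domain with H3K36me3 within 10 kb of both edges was one of 346 kb at chr19:44658001-45003800, at 8.8 and 2.4 kb. The next measured 308 kb at chr10:12914201-13222000, at 2.0 kb before its start and directly at its end, where the H3K36me3 peak began on the next base. Domains of 266 kb at chr8:112474401-112740600, 254 kb at chr11:103275401-103529200 and 188 kb at chr11:116745401-116933600 followed, with distances of 2.6 to 9.0 kb. The 22 domains of this kind had a median length of 139 kb, against 164 kb for those near on 1 side and 163 kb for those near on none.

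Nearness to H3K36me3 did not follow domain length in a steady way. At least 1 side was near in 45 of 136 domains of 100 to 120 kb (33.1%, 25.3 to 41.7%), in 62 of 210 of 150 to 200 kb (29.5%, 23.4 to 36.2%) and in 33 of 87 of 300 kb and longer (37.9%, 27.7 to 49.0%). These intervals overlap. The Spearman correlation of length with the distance to the nearest H3K36me3 peak was -0.03 over the 838 domains.

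A few domains lay far from any H3K36me3. The most distant was a domain of 108 kb at chr16:42064201-42172600, whose nearest H3K36me3 peak was 1689 kb away. Domains of 104 kb (chr7:58757001-58861400), 174 kb (chr16:67084601-67258800), 195 kb (chr17:62525401-62720000) and 178 kb (chr1:11301601-11480000) followed, with the nearest H3K36me3 peak at 1641, 1218, 1106 and 1092 kb. Neither side had H3K36me3 within 500 kb in 34 domains (4.06%, 2.83 to 5.62%), against 6.40% of all H3K27me3 peaks.

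The H3K36me3 peaks beside domains were of ordinary length. The 278 peaks that began within 10 kb of a domain edge without touching the domain had a median of 16.0 kb (interquartile range 8.65 to 29.5 kb), beside 15.0 kb (8.0 to 26.2 kb) for all 7773 H3K36me3 peaks. The longest of them measured 103 kb, 23 reached 50 kb and 26 were under 5 kb. H3K36me3 covered on average 15.1% of the 50 kb outside a domain edge, although 62.4% of these windows held none. The same mean was 13.8% beside H3K27me3 peaks of 5 to 100 kb and 9.50% beside those under 5 kb.

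H3K36me3 was found inside few domains. Bases were shared by 21 domains (2.51%, 1.56 to 3.81%), against 1.43% of all H3K27me3 peaks, and 18 domains had an H3K36me3 peak wholly inside (2.15%, 1.28 to 3.37%), against 0.825%. A longer peak has more bases on which sharing can occur, and per base the order was the opposite. Domains shared 219 kb, or 0.139% of their bases, and H3K27me3 peaks of 5 to 100 kb shared 148 kb, or 0.191% of theirs. The number of H3K36me3 peaks met per 10 Mb of H3K27me3 was 2.09 in domains and 4.12 in peaks of 5 to 100 kb, which have more edges for their bases. None of these differences was tested. The smallest gap in the H3K27me3 list is 10.2 kb, against 1.2 kb in the H3K36me3 list, so no shorter break in H3K27me3 is listed. Shared bases are therefore an overlap of listed peaks. Whether both marks lie on the same bases cannot be told from positions.

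The 33 H3K36me3 peaks that shared bases with domains were 28 that lay wholly inside and 5 that crossed an edge. Those inside were short, with a median of 5.8 kb and a range of 1.2 to 23.6 kb. Their distance to the nearer domain edge had a median of 36.5 kb and ranged from 0 to 229 kb, and 10 of the 28 lay within 20 kb of an edge. Of the 18 domains with H3K36me3 inside, 12 had 1 such peak. The crossing peaks shared 2.8 kb (median) and at most 9.2 kb.

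The domain with the most H3K36me3 inside was one of 116 kb at chr11:82985801-83101800. It held 5 H3K36me3 peaks of 8.0 to 15.4 kb, spread from 9.40 to 73.8% of its length, and together they took 57.4 kb of it. The domain of 539.6 kb on chromosome 10 named above held 3 peaks, of 6.0, 12.2 and 4.2 kb, the first of which began at the same base as the domain and the last of which lay 229 kb from the nearer edge. On chromosome X a domain of 360.4 kb (chrX:67608001-67968400) held 2 peaks and was crossed by another at its start. Domains of 281 kb at chr19:40927801-41208600 and 201 kb at chr17:36169001-36369600 held 2 each. Another domain with 2 inside, the longest of chromosome 2, shared fewer bases (5.8 kb). The longest peak wholly inside measured 23.6 kb, in a domain of 218 kb at chr14:75465601-75683200, a case chosen after its value was seen.

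The density of domains differed between chromosomes. Over all chromosomes there were 3.29 domains per 10 Mb of span. Chromosome 19 had the most, with 34 domains or 5.86 per 10 Mb, and domains covered 11.1% of it. Chromosome 2 followed with 89 domains or 4.99 per 10 Mb, covering 8.85%. At the lower end stood chromosome 7 with 23 domains or 1.63 per 10 Mb, chromosome X with 28 or 1.75, chromosome 3 with 28 or 1.80 and chromosome 18 with 19 or 2.18. These 6 chromosomes were more than 1.5 times above or below the density over all chromosomes, and the other 14 were not. Chromosome 2 passed narrowly, at 1.52 times. By bases covered it stood at 1.43 times and chromosome 15, with 9.88% covered, at 1.59 times. Chromosome 15 thus took its place among the 6 when bases were counted. No test was made, since domains are clustered and are not independent.

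The sparse chromosomes differed in what they lacked. On chromosome X the domains made up 28.6% of the 98 H3K27me3 peaks, the highest share of any chromosome, and shorter peaks were rare there as well (4.37 per 10 Mb). On chromosome 7 the domains were 11.3% of 204 peaks, the lowest share, and shorter peaks stood at 12.8 per 10 Mb, beside 12.4 over all chromosomes. Across the 20 chromosomes, the density of domains had a Pearson correlation of 0.73 (Spearman 0.71) with that of shorter H3K27me3 peaks and of 0.50 (Spearman 0.52) with that of H3K36me3 peaks, the latter falling to 0.39 without chromosome 19. The chromosomes share the same libraries, and these values are a description.

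Chromosomes with many domains did not all gather them in blocks. Chromosome 1 carried 85 domains but 1 block with 3 of them (chr1:57271401-58352200), whereas chromosome 2 carried 89 domains and 11 of the 38 blocks, with 41 domains. Gaps under 500 kb were 27 of 84 (32.1%) on chromosome 1 and 42 of 88 (47.7%) on chromosome 2. Chromosome 14 had 6 blocks with 23 of its 48 domains, and 48.9% of its gaps were under 500 kb. Chromosomes 3, 7, 16 and 18 had no block.

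Along the chromosomes the domains were spread over the whole span. The mouse chromosomes carry their centromere at the end from which positions are counted. With the span divided into 5 equal parts from that end, 19.6% of domains lay in the first, 22.2% in the second, 18.4% in the third, 19.3% in the fourth and 20.5% in the last (17.8 to 23.4%). Of all H3K27me3 peaks, 19.7% lay in the first part and 23.3% in the last. Single chromosomes departed from this evenness. The third part of chromosome 14 held 24 of its 48 domains, the fourth part of chromosome 9 held 1 of 42, and the fourth part of chromosome X held 1 of 28. On chromosome 6 the last domain ended 23.3 Mb before the end of the span, and on chromosome 7 the first began 22.2 Mb after the start.

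**Figure D5:**
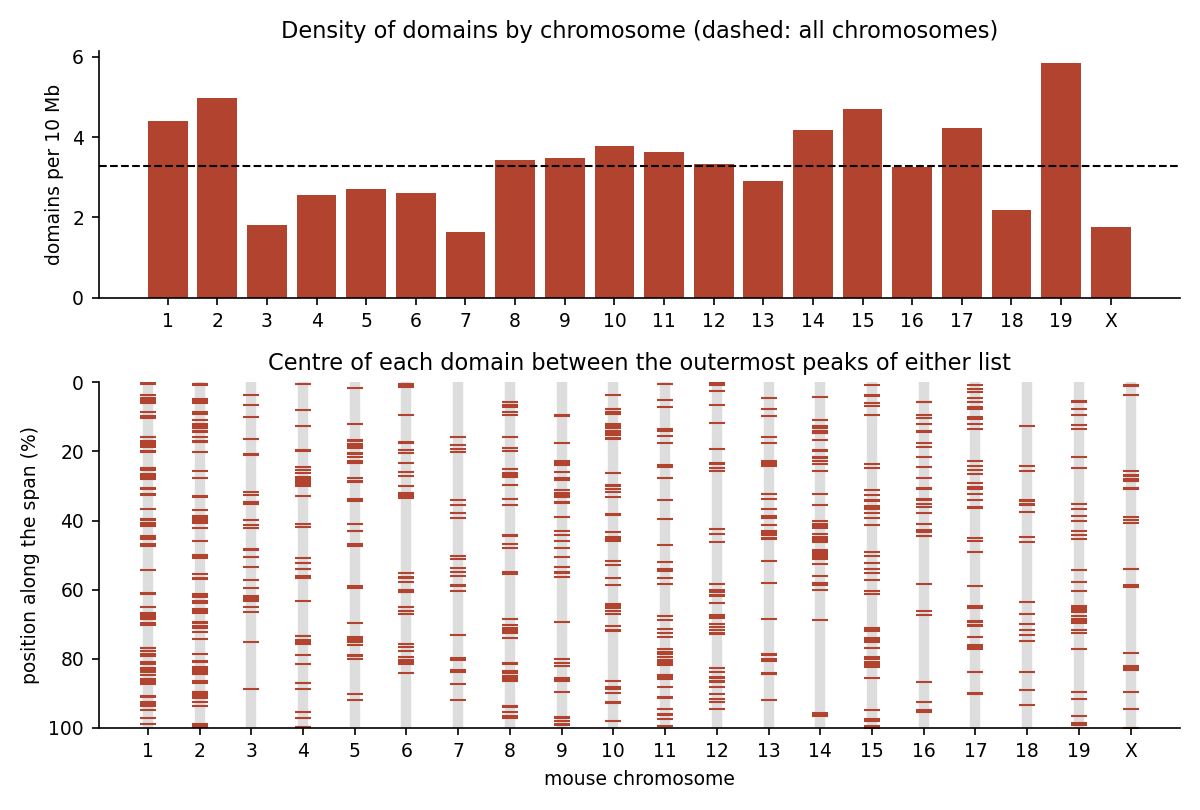
Top, domains per 10 Mb of span on each chromosome, with the value over all chromosomes (3.29) as a dashed line. Bottom, the centre of each of the 838 domains as a dash along the span of its chromosome (%), from the centromere end at the top. Chromosome 19 stands at 5.86 and chromosome 7 at 1.63, and the third part of chromosome 14 holds 24 of its 48 domains.

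Counted in bins of 5 Mb, 188 of 534 bins (35.2%) held no domain centre, and 36 bins (6.74%) held 5 or more, which together carried 202 domains (24.1%). The most in a bin was 9, at chr19:40000001-45000000, followed by 8 at chr8:110000001-115000000. Median H3K36me3 coverage was 2.83% in bins without a domain (interquartile range 0.769 to 5.11%), 6.01% in bins with 1 to 2, 8.64% in bins with 3 to 4 and 8.20% in bins with 5 or more (6.91 to 11.5%). The interquartile range was 3.71 to 9.25% in bins with 1 to 2 domains and 5.58 to 12.1% in bins with 3 to 4. The range of bins without a domain overlaps the former but not the latter. Bins at the ends of a span are cut short, and the last of chromosome 4, without a domain, was 100% covered. By these medians, bins that held domains also held more of the mark of transcribed gene bodies than bins that held none. The bins were not compared by shorter H3K27me3 peaks, whose density ran with that of domains across chromosomes (Pearson 0.73). The pattern is therefore not shown to be particular to domains. Of the domains, 97.5% shared no base with H3K36me3, beside 98.6% of all H3K27me3 peaks.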

How the data were processed

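Per the submitters' processing notes, alignment used Bowtie 1.0.0 and the build mm9. Which caller made the peaks, with which settings and from which libraries, is not given in the sources used here. The deposited lists hold 3 columns, chromosome, start and end, with 3999 H3K27me3 and 7773 H3K36me3 peaks. In the deposited files every start is a multiple of 200 bp and every end lies 1 bp before one, so both ends were read as included, and positions are printed counted from 1.

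Domains, lengths, gaps, overlaps (at least 1 bp), blocks (3 or more domains, each under 500 kb from the next, spanning at least 1 Mb) and outward distances from each edge to the first H3K36me3 peak were computed with Python 3.11.15 and numpy 2.4.6, in code tested on simulated data. "Within" includes the limit, and a crossed edge counts as a distance of 0. The span of a chromosome runs between the outermost peaks of either list. No statistical test was run, since there are no replicates. The domains, the blocks and the alternatives were chosen with earlier results of these data known. The regions named are the longest domain of each chromosome, the 5 longest blocks, the 5 domains with the most H3K36me3 inside (ties by shared bases), the 5 longest with H3K36me3 near both edges, the 5 farthest from it, the 3 smallest and 3 longest gaps, and 3 peaks on each side of the length limit. Other regions, bins and parts of chromosomes were named after their values had been seen, also where the sentence does not say so. Precision is limited by the number of peaks, and the depth of the libraries is not analysed here.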

Additional observations from a re-analysis of the deposited data

How the results depend on the processing

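Of 41 alternative values, 23 stayed near the reported one, within 1.5 times for a count and within the 95% interval of the reported value otherwise, and 18 moved. Joining peaks closer than 20 kb moved 1 result, the share of gaps under 500 kb that hold H3K36me3, to 68.8%. Joining removes the shortest gaps, 27 of 28 of which are empty. It also gives 878 domains in place of 838, and so a different set of gaps, and the 2 effects were not separated. A limit of 150 kb on length leaves fewer domains by construction, and gave a median gap of 1.86 Mb and 10 blocks with 7.14% of the domains. The other 14 moved values follow from wider or narrower distances. With 250 kb in place of 500 kb, 19.7% of gaps passed, 6 blocks held 2.51% of domains and 46.0% of the gaps held H3K36me3. With 1 Mb these were 48.5%, 80 blocks with 43.1%, and 68.5%. H3K36me3 lay within 5 kb of 7.94% of sides (0.358% of domains on both sides), within 20 kb of 26.3% (6.21%) and within 50 kb of 37.4% (14.1%). The number of domains was 922 from 90 kb, 702 from 120 kb and 837 with the end base not counted. The other alternatives left 6 to 8 chromosomes of uneven density, with chromosome 15 in place of chromosome 2 when bases were counted. No paired analysis was possible because each group has a single library, which neither list names. The depth behind a peak is unknown, so a stretch without a peak is one where none is listed. K36M was not compared with wild type.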
